A study of Mus musculus with 11 samples.

Results

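The 10 cell surface genes by which mammary epithelial cells are sorted or described, *Epcam*, *Cd24a*, *Prom1*, *Ly6a*, *Kit*, *Thy1*, *Cd44*, *Cd55*, *Muc1* and *Alcam*, were followed through 11 mouse mammary RNA-seq libraries. They were taken by name from a list of sorting antigens and make up 10 of the 27179 genes counted. The 9 sorted libraries came from mammary glands of wild-type virgin FVB/N females, labelled as 8 weeks old, after depletion of cells bearing CD31, CD45 or TER-119. MaSC/basal cells (CD24+CD29hi), luminal progenitor cells (LP, CD24+CD29loCD61+) and mature luminal cells (ML, CD24+CD29loCD61-) had 3 libraries each. The Mammosphere library came from MaSC/basal cells of the same strain after a week in culture, and the CommaDB library from an established mammary epithelial line of Balb/c origin, derived at mid-pregnancy, with 1 library each. The label of the CommaDB library names its cells CommaD-beta-geo, after an introduced reporter, and no treatment or engineered allele is given for the other libraries. Mammosphere cells may have been pooled from several cultures, judging by the name submitted for them, and the submitted name of MaSC/basal replicate 1 contains p53 while its label reads wild type. Batch 1 of library preparation held replicate 1 of the 3 populations and the Mammosphere library, batch 2 held MaSC/basal replicates 2 and 3 with LP and ML replicate 2, and batch 3 held LP and ML replicate 3 with the CommaDB library.

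Fluorescence-activated sorting of the mammary gland relies on antibodies to proteins that span or are anchored in the plasma membrane. The gland is a bilayer in which contractile basal cells surround luminal cells, and the luminal layer holds both hormone-sensing cells and progenitors of the secretory lineage. The proteins studied here are adhesion molecules (*Epcam*, *Alcam*, *Cd44*), a receptor tyrosine kinase (*Kit*), a membrane mucin (*Muc1*), a pentaspan protein of membrane protrusions (*Prom1*) and proteins held by a glycosylphosphatidylinositol (GPI) anchor (*Cd24a*, *Ly6a*, *Thy1*, *Cd55*). The libraries measure transcripts and not protein at the cell surface. CD24 was itself part of all 3 gates, so the values of *Cd24a* describe the sort, and counts of genes are given with and without it.

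The number of reads assigned to genes ranged from 19958838 to 75795034 per library. All 10 genes passed the filter on low counts (over 0.5 CPM, the read count relative to library size, in at least 3 libraries), and the CPM below are scaled by TMM factors. In all 15422 genes passed. Populations matched their names in the marker genes. The summed level of 5 basal markers (*Krt5*, *Krt14*, *Trp63*, *Acta2*, *Oxtr*) was 12713 to 17117 CPM in MaSC/basal libraries and 61.9 to 321 CPM in luminal ones, the highest of these in ML replicate 3. The summed level of 4 mature luminal markers (*Esr1*, *Pgr*, *Foxa1*, *Prlr*) was 3542 to 5948 CPM in ML, 642 to 1562 CPM in LP and 56.6 to 61.5 CPM in MaSC/basal libraries. Over the 9 sorted libraries, 8 leukocyte markers summed to 1.70 to 11.7 CPM and 5 mast cell markers to 0 to 1.73 CPM. In the CommaDB library luminal markers were low, with *Krt8*, *Krt18* and *Krt19* summing to 67.5 CPM against 466 to 660 CPM in MaSC/basal libraries.

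The genes fell into 4 patterns. *Epcam* was high in both luminal populations, *Kit*, *Cd55* and *Muc1* were highest in LP cells, *Prom1*, *Ly6a*, *Alcam* and *Cd24a* were highest in ML cells, and *Cd44* and *Thy1* were higher in MaSC/basal than in ML cells. *Cd44* was also higher in LP than in ML cells, and the call of *Thy1* was lost in some alternatives given below. In MaSC/basal against LP cells, 8 of the 10 genes were higher in LP (7 of 9 without *Cd24a*), where 28.0% of all genes tested were, and 0 were higher in MaSC/basal, where 29.4% of all genes were (edgeR quasi-likelihood test, adjusted p under 0.05). At an unadjusted p under 0.05 this count was also 0, as it was with limma voom and with DESeq2. Against ML cells, 8 genes were higher in ML (7 of 9 without *Cd24a*) beside 29.7% of all genes, and 2 were higher in MaSC/basal beside 28.9%. Between the luminal populations, 4 genes were higher in LP beside 14.3% of all genes, and 4 were higher in ML (3 of 9 without *Cd24a*) beside 17.5%. The median log2 fold change of the 10 genes was -2.39 in MaSC/basal against LP and -3.69 against ML, while the median of all genes tested was -0.01 in both. Each of the 10 genes called in a comparison had libraries that did not overlap between the populations compared. The share of all called genes without overlap was not computed, so this is given as a description only.

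**Figure D1:**
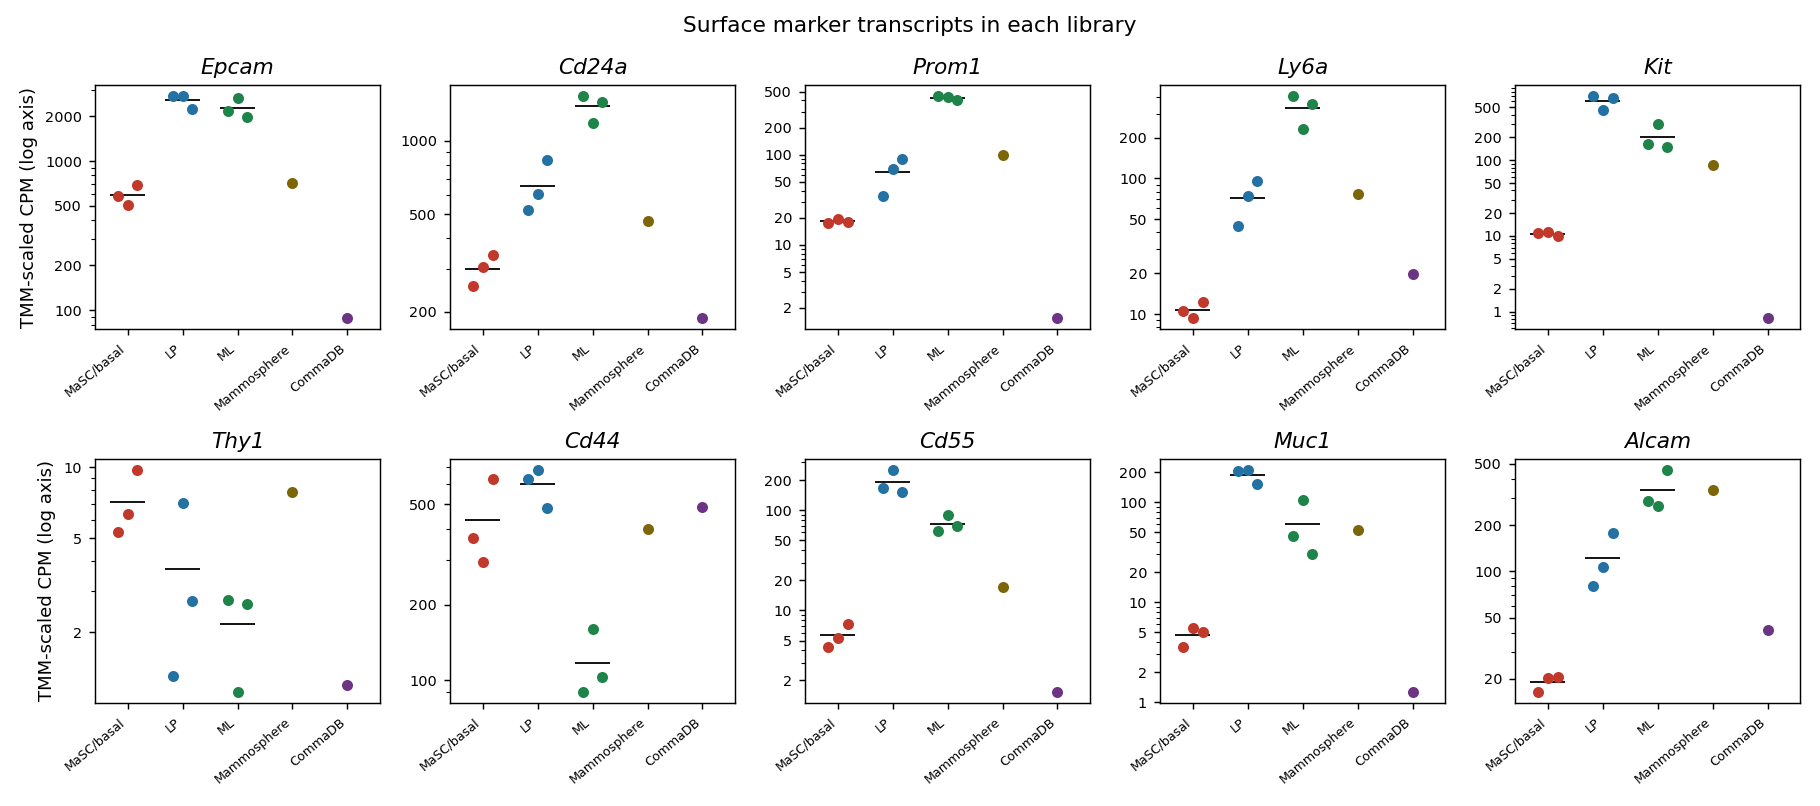
TMM-scaled CPM (log axis) of each gene in each library, with a panel per gene and the sample types along the x axis. Points are libraries and lines are means of 3 libraries, and Mammosphere and CommaDB have 1 library each. *Kit*, *Cd55* and *Muc1* peak in LP, *Prom1*, *Ly6a*, *Alcam* and *Cd24a* peak in ML, and the ML libraries are lowest of the sorted populations for *Cd44*.

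**Figure D2:**
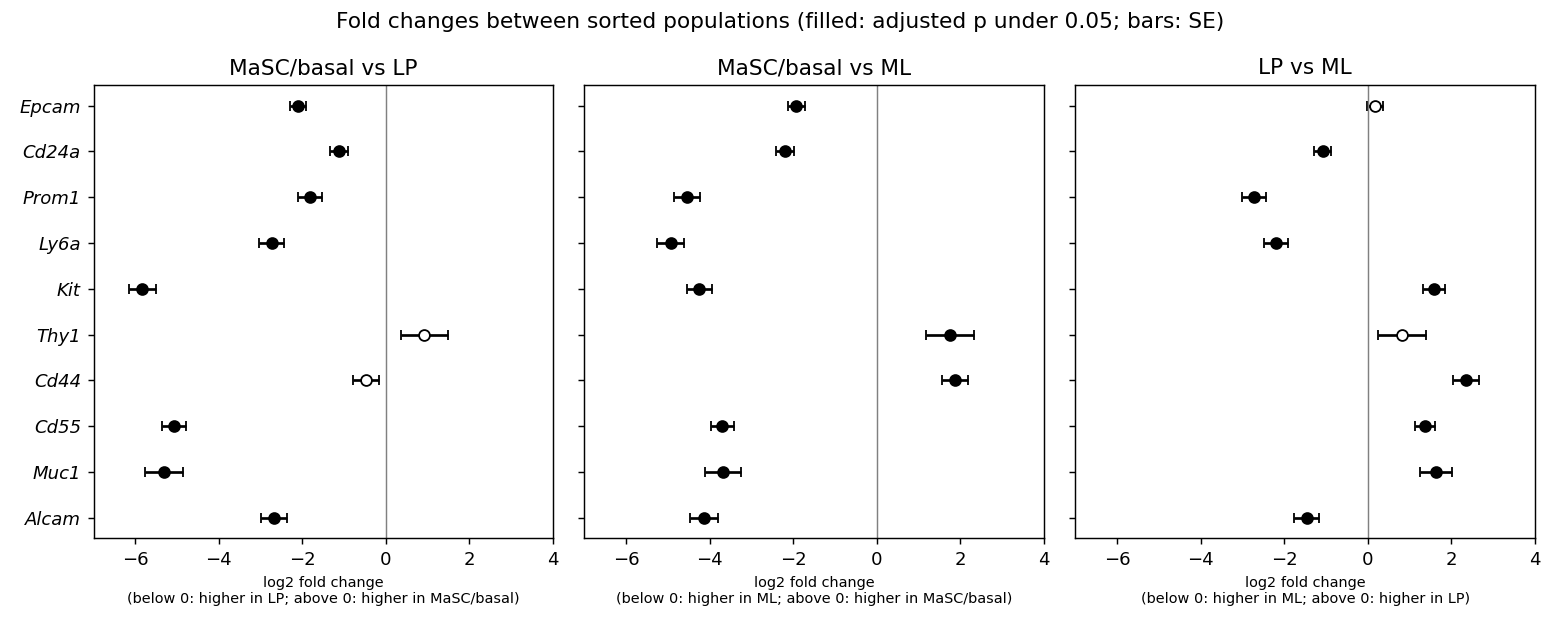
Log2 fold changes of the 10 genes in the 3 comparisons of sorted populations, with SE as bars and filled points for an edgeR adjusted p under 0.05. In both comparisons with MaSC/basal cells 8 genes lie to the left, at higher levels in the luminal population, and between LP and ML the genes divide into 4 and 4.

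Promoter sequence is shown for 4 genes that stand for the luminal patterns, *Epcam* (both luminal populations), *Kit* and *Muc1* (LP) and *Alcam* (ML). Each is the 250 bases before the RefSeq start on GRCm38.p6, 5′ to 3′ in the direction of the gene. For *Kit*, which has 2 such starts, the one farthest upstream was taken. Capitals mark matches on either strand to the GC box GGGCGG, the CCAAT box, the TATA box TATAAA, the E-box CACCTG bound by repressors of the SNAI and ZEB families, and the AP-1 site TGANTCA.
Epcam, chr17:87635729-87635978, plus strand: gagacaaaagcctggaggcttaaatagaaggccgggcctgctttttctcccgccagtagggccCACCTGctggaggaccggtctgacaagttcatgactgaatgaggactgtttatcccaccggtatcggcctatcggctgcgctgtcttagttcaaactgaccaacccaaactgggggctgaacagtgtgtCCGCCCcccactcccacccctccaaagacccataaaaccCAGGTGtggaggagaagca
Kit, chr5:75574737-75574986, plus strand: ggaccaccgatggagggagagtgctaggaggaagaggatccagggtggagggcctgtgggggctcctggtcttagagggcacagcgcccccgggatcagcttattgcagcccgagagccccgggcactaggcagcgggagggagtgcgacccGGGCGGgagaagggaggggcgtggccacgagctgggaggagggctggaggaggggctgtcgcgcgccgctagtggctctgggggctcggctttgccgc
Muc1, chr3:89228806-89229055, plus strand: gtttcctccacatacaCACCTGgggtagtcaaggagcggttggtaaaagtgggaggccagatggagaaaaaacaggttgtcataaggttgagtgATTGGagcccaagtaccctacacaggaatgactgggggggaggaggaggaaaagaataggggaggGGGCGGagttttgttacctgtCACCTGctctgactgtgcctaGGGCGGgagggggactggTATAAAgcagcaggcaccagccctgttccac
Alcam, chr16:52453082-52453331, minus strand: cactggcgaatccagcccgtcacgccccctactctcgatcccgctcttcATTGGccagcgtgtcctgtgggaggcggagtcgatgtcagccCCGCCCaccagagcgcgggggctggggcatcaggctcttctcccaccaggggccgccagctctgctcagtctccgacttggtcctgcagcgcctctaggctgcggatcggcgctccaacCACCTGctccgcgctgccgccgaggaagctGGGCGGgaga

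A GC box was found in all 4 windows, and 32.7% of 32851 mouse promoter windows of the same length hold one. The E-box occurred 2 times in the window of *Epcam*, 2 times in that of *Muc1* and 1 time in that of *Alcam*, and was not found in that of *Kit*, against 17.2% of all windows with at least 1. *Muc1* alone of the 4 had a TATA box, held by 12.4% of all windows. A CCAAT box was found for *Muc1* and *Alcam* and in 33.8% of all windows, and the AP-1 site was found in none of the 4 and in 6.75% of all windows. *Kit* and *Muc1*, both highest in LP, thus shared the GC box and no other of these letters. Windows of 7 of the 10 genes were searched, and of the 3 not printed, *Cd55* had 2 GC boxes, *Prom1* had 1 GC box, 1 CCAAT box, 1 E-box and 1 AP-1 site, and *Cd44* had none of the 5 motifs. The windows of *Cd55* and *Prom1* lie within the gene spans given below, so they do not precede the outermost end of the gene. GC content was 70.8% in the *Kit* window, 69.2% in that of *Alcam*, 56.4% in that of *Epcam* and 54.8% in that of *Muc1*. These matches describe the letters of each window only.

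*Epcam* (chr17:87635979-87651127) encodes a homophilic adhesion molecule of epithelia that serves as a pan-epithelial sorting antigen. Its level was 584, 506 and 693 CPM in the MaSC/basal libraries, 2726, 2711 and 2230 CPM in LP and 2180, 2646 and 1962 CPM in ML. All luminal libraries lay above all MaSC/basal ones, and LP and ML overlapped. The log2 fold change was -2.10 ± 0.20 (SE) in MaSC/basal against LP (edgeR adjusted p = 1.29e-05) and -1.93 ± 0.20 against ML (edgeR adjusted p = 1.98e-05). LP and ML were not distinguished, at 0.18 ± 0.19 (edgeR adjusted p = 0.519). *Epcam* was still abundant in MaSC/basal cells, above 99.0% of the genes tested in CPM per kilobase of exon (RPKM). In bulk samples a smaller share of expressing cells and less RNA per cell cannot be told apart.

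*Kit* (chr5:75574987-75656722) encodes the receptor of stem cell factor and marks luminal progenitors. It stood at 10.9, 11.3 and 9.89 CPM in MaSC/basal libraries, 706, 467 and 662 CPM in LP and 164, 298 and 148 CPM in ML. The 3 populations did not overlap, and the 57.2-fold difference between MaSC/basal and LP was the largest of any gene in the list. The log2 fold change was -5.84 ± 0.32 against LP (edgeR adjusted p = 5.35e-07) and -4.25 ± 0.30 against ML (edgeR adjusted p = 1.62e-06), and LP exceeded ML by 1.59 ± 0.27 (edgeR adjusted p = 0.00248). Within batches the LP minus ML difference was 2.11, 0.65 and 2.16 on the log2 scale, smallest in batch 2, where LP replicate 2 was the lowest LP library and ML replicate 2 the highest ML library. Mast cells also carry KIT, and their 5 markers summed to 0 to 1.73 CPM in the sorted libraries as given above. None of these markers passed the filter on low counts, and the part of mast cells in the *Kit* values was not tested. Transcripts of its ligand, *Kitl*, were highest in MaSC/basal libraries, at 687, 770 and 835 CPM against 251 to 588 CPM in luminal ones.

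*Cd55* (chr1:130429798-130465009) encodes decay-accelerating factor, a GPI-anchored protein that protects cells from complement. Its level was 4.34, 5.26 and 7.35 CPM in MaSC/basal, 165, 253 and 152 CPM in LP and 61.8, 89.2 and 69.5 CPM in ML. The 3 populations were separate, in the order LP, ML and MaSC/basal. The log2 fold change was -5.07 ± 0.29 in MaSC/basal against LP (edgeR adjusted p = 6.37e-07), -3.70 ± 0.27 against ML (edgeR adjusted p = 2.18e-06) and 1.37 ± 0.25 in LP against ML (edgeR adjusted p = 0.00337). *Cd55b*, the paralog next to it, followed the same order at 0.10 to 0.15 CPM in MaSC/basal, 4.23 to 6.83 CPM in LP and 1.41 to 2.68 CPM in ML. Of the 4848 windows of 100 bases in *Cd55* transcripts, 4.27% occurred also in transcripts of *Cd55b* or Gm16083 on either strand, so a part of the *Cd55b* reads may not be its own. Of the 6 complement regulators listed, 4 were higher in LP than in MaSC/basal, beside 28.0% of all genes, and the other 2 were not called. The 4 were *Cd55* and *Cd55b* themselves, *Cr1l* and *Cd46*. *Cr1l* was at 49.6 to 55.1 CPM in LP and 27.6 to 33.1 CPM in MaSC/basal. *Cd46* was near the floor, at or under 1.01 CPM in every library. Against ML, 3 of the 6 were higher in ML and 1 in MaSC/basal, beside 29.7% and 28.9% of all genes.

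*Muc1* (chr3:89229056-89233381) encodes a mucin of the apical luminal membrane. It was measured at 3.60, 5.56 and 4.99 CPM in MaSC/basal, 204, 210 and 150 CPM in LP and 46.3, 104 and 30.2 CPM in ML. No library of one population reached another, although ML spread over more than 3-fold with replicate 2 at its top. MaSC/basal differed from LP by -5.32 ± 0.46 (edgeR adjusted p = 6.51e-06) and from ML by -3.68 ± 0.43 (edgeR adjusted p = 4.25e-05), and LP exceeded ML by 1.64 ± 0.39 (edgeR adjusted p = 0.0110). *Muc20*, another membrane mucin, ran at 77.8 to 118 CPM in LP, 12.8 to 47.2 CPM in ML and 0.75 to 1.62 CPM in MaSC/basal. *Muc4* was likewise lower in MaSC/basal, at 1.55 to 8.72 CPM against 132 to 289 CPM in LP, whereas its LP and ML libraries overlapped (edgeR adjusted p = 0.272). *Muc16* was nearly absent, at or under 0.02 CPM in MaSC/basal and at most 6.29 CPM in ML, and no fold is given for it.

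*Prom1* (chr5:43993621-44102047) encodes CD133, which labels hormone-sensing luminal cells in the mouse. Its level was 17.5, 19.5 and 17.8 CPM in MaSC/basal, 34.5, 68.7 and 90.6 CPM in LP and 447, 432 and 402 CPM in ML. ML libraries were tight and all far above LP, while LP varied by more than 2-fold. The log2 fold change of LP against ML was -2.72 ± 0.29 (edgeR adjusted p = 8.00e-04), the largest of the list in that comparison, with -4.55 ± 0.32 in MaSC/basal against ML (edgeR adjusted p = 1.52e-06) and -1.82 ± 0.28 against LP (edgeR adjusted p = 3.47e-04). Within batches the LP minus ML difference was -3.69, -2.65 and -2.15. Its relative *Prom2* was also highest in ML, at 364 to 407 CPM, with 84.8 to 104 CPM in MaSC/basal and 42.3 to 92.7 CPM in LP, a difference that did not pass (edgeR adjusted p = 0.117) and passed with the library batch as a block (0.0355). Of the *Prom1* windows, 2.71% lay also in Gm16401, and the libraries do not keep strand.

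*Ly6a* (chr15:74994877-74998031) encodes SCA-1, a small GPI-anchored protein that divides luminal cells by hormone receptor status. It was found at 10.6, 9.31 and 12.3 CPM in MaSC/basal, 44.7, 74.8 and 95.7 CPM in LP and 404, 232 and 354 CPM in ML. The populations were separate and rose from MaSC/basal through LP to ML. The log2 fold change was -4.94 ± 0.33 in MaSC/basal against ML (edgeR adjusted p = 1.10e-06), -2.74 ± 0.30 against LP (edgeR adjusted p = 3.15e-05) and -2.20 ± 0.29 in LP against ML (edgeR adjusted p = 0.00102). Endothelial cells carry SCA-1 too, and their 6 markers summed to 45.8 to 97.9 CPM in MaSC/basal, 7.51 to 23.6 CPM in LP and 5.74 to 39.0 CPM in ML. Their sum was thus highest in MaSC/basal, where *Ly6a* was lowest, while the median sum was 18.8 CPM in LP and 35.0 CPM in ML, in the direction of *Ly6a*, and its part in the LP and ML difference was not tested. ML replicate 1 had the most *Ly6a* and the least endothelial signal of the 9. *Ly6d*, a member of the same protein family, was at 4.24 to 5.74 CPM in MaSC/basal and 519 to 900 CPM in ML (log2 fold change -7.24, edgeR adjusted p = 2.55e-07). *Ly6c1*, which shares 1.45% of the *Ly6a* windows, was at 4.66 to 14.9 CPM in the sorted libraries.

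*Alcam* (chr16:52248996-52453081) encodes CD166, an adhesion molecule of the immunoglobulin superfamily. It stood at 16.4, 20.4 and 20.5 CPM in MaSC/basal, 80.2, 107 and 179 CPM in LP and 288, 265 and 458 CPM in ML. Replicate 3 was the highest library within both luminal populations, and the populations did not overlap. MaSC/basal differed from ML by -4.14 ± 0.33 (edgeR adjusted p = 3.84e-06), from LP by -2.67 ± 0.31 (edgeR adjusted p = 5.27e-05), and LP from ML by -1.46 ± 0.30 (edgeR adjusted p = 0.00582).

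*Cd24a* (chr10:43579169-43584265) encodes the antigen of the sort itself. Its level was 255, 304 and 340 CPM in MaSC/basal, 522, 607 and 834 CPM in LP and 1525, 1181 and 1442 CPM in ML. The populations followed one another without overlap even though all were gated as CD24+. The log2 fold change was -1.13 ± 0.21 in MaSC/basal against LP, -2.21 ± 0.22 against ML and -1.08 ± 0.21 in LP against ML, with edgeR adjusted p of 0.00115, 1.41e-05 and 0.00482. The other antigens of the gates can be set beside it: *Itgb1* (CD29) was at 1202 to 1500 CPM in MaSC/basal and 531 to 622 CPM in luminal libraries, and *Itgb3* (CD61) at 150 to 279 CPM in LP, 4.51 to 34.0 CPM in ML and 64.7 to 73.3 CPM in MaSC/basal.

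*Cd44* (chr2:102811141-102901669) encodes a receptor for hyaluronan and osteopontin. It was measured at 369, 295 and 630 CPM in MaSC/basal, 631, 685 and 483 CPM in LP and 89.8, 160 and 103 CPM in ML. ML libraries were below all others, whereas MaSC/basal replicate 3 lay within the LP range. MaSC/basal exceeded ML by 1.88 ± 0.32 (edgeR adjusted p = 5.30e-04) and LP exceeded ML by 2.35 ± 0.32 (edgeR adjusted p = 0.00111). MaSC/basal and LP differed by -0.48 ± 0.31, which did not pass the test (edgeR adjusted p = 0.208), and without MaSC/basal replicate 3 the difference was -0.84 with an adjusted p of 0.0329, LP then being higher. *Spp1*, which encodes osteopontin, reached 6522 to 13575 CPM in LP, 164 to 822 CPM in ML and 35.1 to 40.9 CPM in MaSC/basal. *Has1*, *Has2* and *Has3* make hyaluronan. *Has1* was at 27.8 to 36.5 CPM in MaSC/basal, 25.4 to 47.4 CPM in LP and 6.93 to 11.1 CPM in ML, lower in ML than in either (edgeR adjusted p = 1.77e-04 and 0.00117), as *Cd44* was. *Has2* was at 76.7 to 286 CPM in MaSC/basal and 4.13 to 11.2 CPM in luminal libraries, and was highest in the MaSC/basal library with the most *Cd44*. *Has3* was not called in any comparison, at 3.18 to 7.63 CPM in the sorted libraries.

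*Thy1* (chr9:44043384-44048579) encodes CD90, a GPI-anchored protein found on basal mammary cells, fibroblasts and neurons. It was low throughout, at 5.34, 6.34 and 9.76 CPM (315, 318 and 518 reads) in MaSC/basal, 1.30, 7.06 and 2.72 CPM (37, 377 and 51 reads) in LP and 2.74, 1.12 and 2.64 CPM (97, 84 and 58 reads) in ML. LP replicate 2 lay among the MaSC/basal libraries, and ML lay below them all. MaSC/basal exceeded ML by 1.75 ± 0.57 (edgeR adjusted p = 0.0237), a call that was lost with the library batch as a block (adjusted p = 0.0750), without MaSC/basal replicate 3 (0.0807) and without ML replicate 2 (0.0740). Against LP the difference of 0.92 ± 0.55 did not pass (edgeR adjusted p = 0.179), and without LP replicate 2 it was 1.83 with an adjusted p of 0.0136. That library also had the highest summed level of 6 fibroblast markers among sorted libraries, 1377 CPM against 285 to 929 CPM in the other 8. *Col1a1* stood at 235 CPM there against 45.1 and 95.9 CPM in the other LP libraries, and *Col1a2*, *Col3a1* and *Lum* were also highest there. The remaining markers went less with this, as *Pdgfra* was at 30.6 CPM against 29.9 and 28.0 CPM. *Dcn* was at 207 CPM against 52.7 and 172 CPM, and at 285 to 450 CPM in ML. The Mammosphere library had 2411 CPM of these markers and 7.85 CPM of *Thy1*, but CommaDB had 3670 CPM and 1.19 CPM. The part of fibroblast RNA in the *Thy1* values was not tested.

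**Figure D3:**
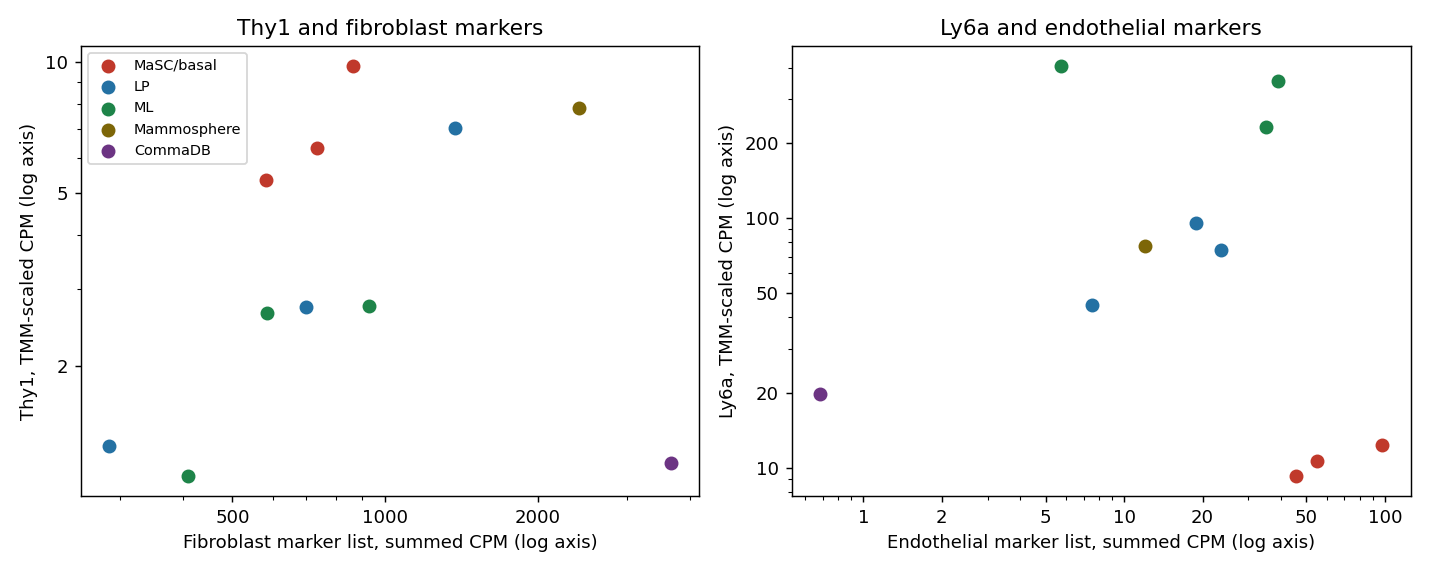
*Thy1* against the summed CPM of 6 fibroblast markers (left) and *Ly6a* against that of 6 endothelial markers (right), both axes logarithmic and each point a library. LP replicate 2, at 1377 and 7.06 CPM, lies apart from the other LP libraries on the left, and on the right the MaSC/basal libraries have the most endothelial signal and the least *Ly6a*.

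Levels can be compared between genes per length of transcript. In RPKM the order in MaSC/basal cells was *Epcam* (288), *Cd24a* (165), *Cd44* (76.3), *Ly6a* (13.0), *Prom1* (4.45), *Thy1* (4.12), *Alcam* (3.85), *Cd55* (2.24), *Muc1* (2.11) and *Kit* (2.06), the last 3 above only 28.9% to 30.0% of the genes tested and closer to each other than their spread. In LP cells *Epcam* (1240 RPKM) and *Cd24a* (360 RPKM) again led, followed by *Kit* at 118 ± 24.5 RPKM (SD, n = 3) and *Cd44* at 106 ± 18.6 RPKM, 2 neighbours closer than their spread. In ML cells *Ly6a* at 399 ± 107 RPKM and *Prom1* at 104 ± 5.53 RPKM came after *Epcam* (1098 RPKM) and *Cd24a* (761 RPKM). *Kit* thus moved from among the last 3 in MaSC/basal to the third place in LP, level with *Cd44*, and *Prom1* from the ninth in LP to the fourth in ML. *Thy1* was last in both luminal populations, at 2.13 ± 1.73 RPKM in LP and 1.25 ± 0.53 RPKM in ML.

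The balance of CD44 and CD24 is widely used to sort breast cells, and it was computed here as the log2 ratio of their RPKM with 0.1 RPKM added to each. It was -1.10, -1.68 and -0.75 in MaSC/basal libraries, -1.36, -1.46 and -2.43 in LP and -5.72, -4.52 and -5.44 in ML. ML lay far below, and MaSC/basal and LP overlapped. Because CD24 was part of all 3 gates, the ratio in part describes the sort. The mean of MaSC/basal was higher than that of the 6 luminal libraries by 2.31 on the log2 scale, which did not pass an exact two-sided permutation test (p = 0.0714, where 0.0119 is the smallest that the 84 splits allow, and 0.133 after adjustment over 4 contrasts). Against LP alone the difference was 0.57 (exact p = 0.3) and against ML alone 4.05 (exact p = 0.1), and LP exceeded ML by 3.47 (exact p = 0.1). In these 3 contrasts 0.1 is the smallest p that 3 against 3 libraries can give. Within batch 1 the MaSC/basal ratio was -1.10 beside -1.36 for LP and -5.72 for ML, within batch 2 the MaSC/basal ratios were -1.68 and -0.75 beside -1.46 for LP and -4.52 for ML, and batch 3 held no MaSC/basal library. The ratio was -1.87 in the Mammosphere and -0.26 in the CommaDB library.

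**Figure D4:**
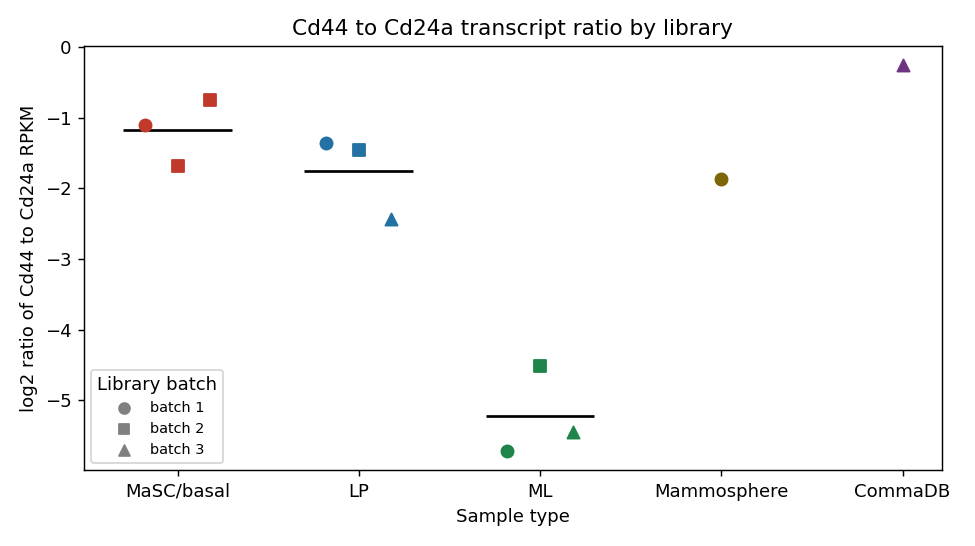
Log2 ratio of *Cd44* to *Cd24a* RPKM in each library by sample type, with marker shapes for the library batch and lines for means of 3 libraries. ML libraries lie between -5.72 and -4.52, and MaSC/basal and LP libraries between -2.43 and -0.75.

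Libraries of the luminal populations differed in how far they leaned to each other. For 7 of the 8 genes called between LP and ML, replicate 3 was the LP library nearest to the ML level, and for 7 of the 8 replicate 2 was the ML library nearest to the LP level. *Itgb3*, the CD61 antigen that divides these gates, had its highest ML value in that ML library (34.0 CPM against 8.68 and 4.51 CPM) and its lowest LP value in LP replicate 3 (150 CPM against 241 and 279 CPM). The 4 luminal progenitor markers, *Kit* among them, summed to 2430 CPM in ML replicate 2 and to 785 and 1056 CPM in the other ML libraries. Nearest libraries were not counted over all genes called between LP and ML, and the cause of the lean was not tested. Without LP replicate 3 and ML replicate 2, the 4 genes higher in LP and the 4 higher in ML were called again. That analysis was chosen after seeing the data, and leaving out the nearest libraries tends to widen the gaps. Each of the 8 kept its direction in 3 of 3 batches, as it must where LP and ML libraries do not overlap. *Epcam*, which was not called, kept its direction in 3 of 3, and *Thy1*, also not called, in 2 of 3.

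The Mammosphere library was set against the mean of the 3 MaSC/basal libraries, with no test because it is a single library, and genes were counted when past 2-fold and outside the MaSC/basal range. In all, 6 of the 10 genes were higher, beside 19.6% of all genes tested, and 0 were lower, beside 20.0%. *Alcam* stood at 339 CPM against a MaSC/basal mean of 19.1 CPM (17.8-fold), *Muc1* at 52.1 against 4.72 CPM (11.1-fold) and *Kit* at 85.7 against 10.7 CPM (8.00-fold). *Ly6a* was at 77.0 CPM (7.18-fold), *Prom1* at 99.0 CPM (5.41-fold) and *Cd55* at 17.2 CPM (3.10-fold). All 6 are among the 8 of the 10 genes that were higher in both luminal populations. The share of all genes raised in the Mammosphere library that were higher in both was not computed, so this is a description only. *Kit*, *Ly6a*, *Prom1* and *Cd55* were below the lowest ML library, and *Muc1* and *Alcam* lay within the ML range. Against LP, *Kit*, *Cd55* and *Muc1* were below the lowest library, *Ly6a* lay within the LP range, and *Prom1* and *Alcam* were above it. *Epcam*, *Cd24a*, *Thy1* and *Cd44* were within 2-fold, at 714, 469, 7.85 and 398 CPM. Summed luminal keratins were at 1983 CPM against 466 to 660 CPM in MaSC/basal libraries, while basal markers were at 3367 CPM. Mature luminal markers summed to 114 CPM, against 56.6 to 61.5 CPM in MaSC/basal and 3542 to 5948 CPM in ML. Of these, *Esr1* (2.75 CPM) and *Pgr* (7.06 CPM) were below all MaSC/basal libraries, and *Foxa1* and *Prlr* above them. Luminal progenitor markers, *Kit* among them, summed to 1447 CPM. They were at 65.0 to 74.4 CPM in MaSC/basal, 6706 to 8848 CPM in LP and 785 to 2430 CPM in ML. Fibroblast markers were at 2411 CPM against 582 to 864 CPM in MaSC/basal libraries, mostly *Col1a1*, *Col1a2* and *Col3a1* (838, 686 and 680 CPM). *Dcn* alone of the 6 was lower, at 98.6 CPM against 162 to 204 CPM. The 4 pericyte markers summed to 347 CPM against 48.0 to 69.8 CPM, with 228 to 341 CPM in luminal libraries, mostly *Notch3* (219 to 335 CPM). *Pdgfrb* was at 151 CPM in the Mammosphere library, 16.1 to 27.5 CPM in MaSC/basal and 1.76 to 7.90 CPM in luminal libraries. *Cspg4* was at 54.4, 10.2 to 15.1 and 0.25 to 2.92 CPM in the same order. *Rgs5* was lower, at 1.13 CPM against 2.47 to 6.16 CPM in MaSC/basal. Which cells carried the transcripts was not tested.

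In the CommaDB library 6 genes were lower than in MaSC/basal cells, beside 24.8% of all genes, and 1 was higher, beside 16.9%. *Kit* had 24 reads (0.82 CPM, 12.4-fold lower on the log2 CPM scale with a prior count of 2), *Prom1* 45 reads (1.53 CPM, 11.6-fold), *Epcam* 88.2 CPM (6.68-fold) and *Thy1* 1.19 CPM (5.62-fold). *Muc1* at 1.26 CPM and *Cd55* at 1.53 CPM were 3.59-fold and 3.53-fold lower. *Alcam* was higher, at 41.4 CPM (2.18-fold). *Ly6a* at 19.8 CPM, *Cd24a* at 188 CPM and *Cd44* at 489 CPM stayed within 2-fold, and *Cd24a* and *Cd44* were the strongest of the list there at 103 and 86.5 RPKM. Strain, stage, culture and library batch all differ from the MaSC/basal libraries and cannot be told apart.

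**Figure D5:**
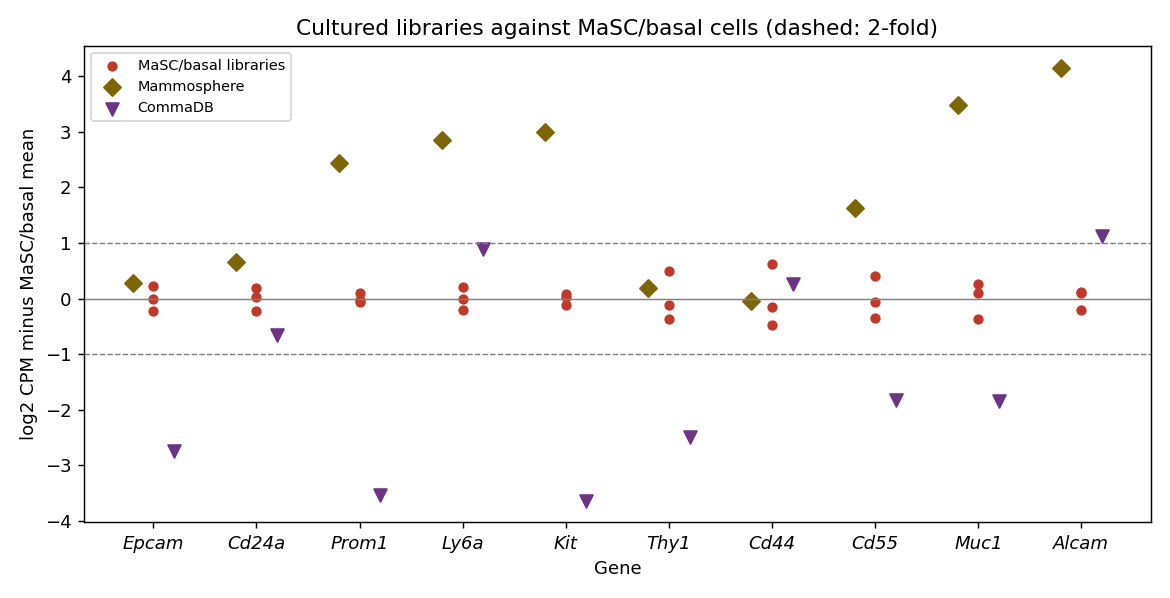
Log2 CPM of each gene in the Mammosphere and CommaDB libraries minus the mean of the 3 MaSC/basal libraries, which are drawn as small points. Dashed lines mark 2-fold. In the Mammosphere library 6 genes lie above the upper line, and 6 lie below the lower line in CommaDB.

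Genes that share a family, a partner or a modification with the 10 were examined as lists. Of 12 other surface antigens used on mammary epithelium, 5 were higher in MaSC/basal and 6 in LP, beside 29.4% and 28.0% of all genes, and against ML 6 were higher in MaSC/basal and 5 in ML, beside 28.9% and 29.7%. These counts include *Itgb1* and *Itgb3*, antigens of the gates, whose calls describe the sort. *Itgb1* was higher in MaSC/basal in both comparisons, and *Itgb3* was higher in LP than in MaSC/basal and higher in MaSC/basal than in ML. The *Itgb3* call against LP was lost without any 1 MaSC/basal library and without LP replicate 1 or 2 (edgeR adjusted p = 0.0588 to 0.0842). *Lgr5*, a WNT-associated receptor of basal stem cells, was at 61.4 to 112 CPM in MaSC/basal and 2.21 to 3.31 CPM in luminal libraries. *Cd14*, a co-receptor for lipopolysaccharide, was at 768 to 1239 CPM in LP and 13.3 to 27.3 CPM in MaSC/basal, and *Tspan8* at 124 to 165 CPM in LP and 12.5 to 16.2 CPM in MaSC/basal. Of 18 tested relatives of the members, 11 were higher in LP and 3 in MaSC/basal, beside 28.0% and 29.4% of all genes, and 12 were higher in ML and 3 in MaSC/basal, beside 29.7% and 28.9%.

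Of 17 tested binding partners, 6 were higher and 6 lower in MaSC/basal than in LP, beside 29.4% and 28.0% of all genes, and 7 were higher and 5 lower than in ML, beside 28.9% and 29.7%. The gate antigen *Itgb3* is among these too, and its calls describe the sort. *Vcan*, a matrix proteoglycan, was at 924 to 1475 CPM in MaSC/basal and 5.65 to 54.6 CPM in luminal libraries. *Lgals3*, a galactose-binding lectin, was at 482 to 766 CPM in ML, 189 to 389 CPM in LP and 6.36 to 10.5 CPM in MaSC/basal. *Cldn7*, a tight junction protein that binds EPCAM, was at 232 to 345 CPM in luminal and 5.90 to 7.57 CPM in MaSC/basal libraries. Among the 22 genes of GPI anchor synthesis and transfer, which serve *Cd24a*, *Ly6a*, *Thy1* and *Cd55* alike, 12 were higher and 2 lower in ML than in MaSC/basal, beside 29.7% and 28.9% of all genes, with a median log2 fold change of -0.36 in MaSC/basal against ML. In LP 7 were higher and 5 lower than in MaSC/basal, near the 28.0% and 29.4% of all genes. *Pgap3*, which remodels the anchor, showed the largest difference, at 37.3 to 43.8 CPM in ML and 7.78 to 10.5 CPM in MaSC/basal, and *Pigw* went the other way at 2.92 to 4.19 and 6.94 to 7.81 CPM.

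The genes whose log2 CPM was most like each member over the 11 libraries were found among 11299 genes. Libraries of a population share their cell type, so that these correlations mostly follow the differences between populations and are given as a description. *Epcam* was followed by *Efna1* and *Cdh1* (Pearson's r = 0.995 and 0.993), the latter encoding E-cadherin. *Kit* was followed by *Acss1* and *Rftn1* (0.995 and 0.994), *Cd55* by *Nedd4l* and *Ceacam2* (0.995 and 0.994), and *Muc1* by *Muc20*, *Csn3* and *Fcgbp* (0.995, 0.995 and 0.994). *Prom1* was followed by *Crip1* (0.997), *Ly6a* by *Rab27b* (0.993), *Alcam* by *Arg1* (0.993) and *Cd24a* by *Tmem135* (0.990). *Cd44* came closest to *Mapk6* (0.965) among genes with a name, after D430020J02Rik (0.979). *Thy1* had the loosest matches, *Serpina3m*, *Cpxm1* and *Col15a1* (0.867, 0.866 and 0.862).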

How the data were processed

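RNA-seq was available for 11 mouse mammary libraries. For each, the authors mapped single-end reads to mm10 with Rsubread, summarised them per Entrez gene with featureCounts and deposited raw counts with gene lengths. How multi-mapping reads were treated is not given in the sources used here. Of 27179 genes, symbols were matched for 25275 through RefSeq and 18 through GENCODE. The 10 genes and all lists were chosen with earlier results of these data known.

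Testing used edgeR 4.0.16 under R 4.3.3 (TMM factors, a quasi-likelihood fit with a mean for each of 5 sample types over 11 libraries, genes over 0.5 CPM in at least 3 libraries, Benjamini-Hochberg adjustment over 15422 genes). An SE is the log2 fold change divided by the root of F. Log2 CPM used a prior count of 2, and RPKM the deposited lengths. The study fitted limma voom, which was run as an alternative. Labels name the library batch, which pairs libraries, and deviations from population means correlated at 0.32, 0.31 and 0.53 between LP and ML of a batch. The study calls the samples of a population independent and does not say whether each came from separate mice, and p-values measure the spread between these libraries, and counting error is all that read depth (19958838 to 75795034 reads) bounds. The procedure was checked on simulated data.

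Genes named were the 10, the 3 most correlated with each (mean of at least 5 CPM), and up to 5 per list with the largest change past the threshold. *Kitl*, *Prom2*, *Itgb1*, *Ly6c1*, *Has1*, *Has3* and single cell type markers were added after their values were seen. The values of 1 listed gene are not reported here.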

Additional observations from a re-analysis of the deposited data

How the results depend on the processing

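Counts of the 10 genes were recomputed with DESeq2 size factors, without TMM scaling, with limma voom, with DESeq2's Wald test, under other filters on low counts, in the 9 sorted libraries alone, with the library batch as a replicate block, with an added log2 cutoff of 1 and without each sorted library. No direction of the 10 genes turned under any of these except that of *Thy1* between LP and ML, which was not called and was 0.82, and -0.074 to 1.25 without each library in turn (-0.074 without LP replicate 2). Genes higher in MaSC/basal than in ML numbered 1 in place of 2 with the replicate block, where *Thy1* had a log2 fold change of 1.53 and an adjusted p of 0.0750, and 1 to 2 without each library in turn. Genes higher in MaSC/basal than in LP numbered 0 to 1 without each library in turn, the 1 being *Thy1* without LP replicate 2. The block changed no other call of the 10 genes. The 4 genes higher in LP and the 4 higher in ML were 4 and 4 under every alternative.

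The difference in the *Cd44* to *Cd24a* ratio was 1.87 to 2.74 without each library in turn and 2.29 with 1 RPKM added, and its exact p stayed above 0.05 throughout, at its lowest 0.0536 without LP replicate 1 or 2. The Mammosphere count stayed at 6, and the CommaDB count was 6 with a log2 cutoff of 1.5 and 8 without TMM scaling, where *Ly6a*, at 1.18 on the log2 scale, was past the cutoff. Of the 30 genes most like the members, 8 were shared with Spearman's rho and 7 with the 9 sorted libraries alone. Between LP and ML, where none was called, *Cldn7* (0.02) and *Itgb1* turned to -0.15 each without TMM scaling, and without libraries in turn *Cldn7* ranged from -0.11 to 0.25, *Itgb1* from -0.023 to 0.11 and *Pigc* (-0.04) from -0.20 to 0.14. *Has1* in MaSC/basal against LP (-0.04, not called) was 0.11 without TMM scaling and -0.21 to 0.29 without libraries in turn. Some calls of listed genes were lost without single libraries. In MaSC/basal against LP these included *Itgb3*, *Kitl* and *Pigw*, and in LP against ML *Cd14*, *Cr1l* and *Kitl*. The causes were not tested. Read depth limits *Thy1* in the luminal libraries, with 37 to 377 reads each, and values of 1 library each in culture have no replicate error.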
